A study of Danio rerio with 4 samples.

Results

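Claudins, the membrane proteins that set what a tight junction lets through, were followed in RNA-seq libraries from whole zebrafish embryos at 2 dpf. The gene set was every row of the deposited table whose symbol starts with cldn and that had at least 1 read in any of the 4 libraries. This gave 28 of the 41 cldn rows, among 18955 genes with a read. The control group holds 2 libraries of embryos labelled WT (AB/TL background). The MZtulp3 group holds 2 libraries of embryos without maternal and zygotic tulp3, the gene of a protein that carries membrane receptors into cilia, knocked out with CRISPR/Cas9. The mutant embryos were picked for severe ventral body curvature, so that genotype and this selection cannot be told apart. The paper lists the mutant line with the li1Tg transgene in an AB/TL background. Whether the control embryos carried this transgene is not given in the sources used here. A difference in it could not be told apart from genotype either. How many embryos went into a library is not given in the sources used here, and the labels call the libraries of a group biological replicates 1 and 2.

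Tight junctions seal the space between neighbouring epithelial or endothelial cells. Claudins of adjacent cells bind each other there, and the mix of claudins in a tissue decides whether the seal is closed or works as a pore for certain ions. Different organs therefore use different claudins: those of skin and of brain vessels mostly close the gap, whereas several of those in kidney tubules and gut let ions pass. Occludins and other MARVEL proteins lie beside claudins in the membrane, zonula occludens (ZO) proteins link them to actin, and the Par and Crumbs complexes position the junction along the side of the cell.

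The libraries held 22589725 to 29735214 reads in genes, of which 41.0% to 71.1% fell in 13 mitochondrial genes, the highest share in MZtulp3 replicate 2. Levels are given as normalised counts, which are reads divided by the size factor of the library. A count of 0 allows up to 3 reads, which corresponds to 1.98 to 3.54 normalised counts depending on the library, and such limits cover counting error only. Reads of tulp3 itself numbered 36 in control replicate 2 (23.8 normalised counts) and 0 in the other libraries, control replicate 1 included, so this gene did not check the labels. Levels are compared between libraries, not between genes, because transcript lengths were not used. In whole embryos, fewer cells of a type and less RNA per cell cannot be told apart.

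Claudin reads were sparse. The 28 genes had between 13 and 1625 reads each over the 4 libraries (median 174.5), and 13 of them were read in every library. In all, 21 claudins reached 10 normalised counts in at least 2 libraries and entered the test, a limma fit of log2(normalised count + 2) over 14674 genes with Benjamini-Hochberg adjustment. None of the 21 had an adjusted p under 0.05 with limma, where 0.0% of all genes did. None did with edgeR (background 0.0%) or with DESeq2 (background 2.6%). At an unadjusted p under 0.05, limma gave 2 claudins (cldn15b and cldnf, both with a negative log2 fold change) against 12.8% of all genes tested (4.82% higher and 7.94% lower in MZtulp3 libraries), and edgeR gave 1 (cldn15b) against 9.72%. DESeq2, which was run on all genes with a read, gave 4 of the 28 (cldn15b, cldnf, cldn29 and cldn8.3) against 11.4%. cldn29 and cldn8.3 are not among the 21, and DESeq2 gave cldnf no adjusted p. Both cldn15b and cldnf passed the filter through the control libraries alone, so their negative direction was fixed by the filter. The standard errors of the log2 fold changes had a median of 1.56 over the tested claudins and 1.09 over all genes tested. The claudin results below are therefore values per library, and no single claudin was called different. The plot of the 28 genes shows how they fell in each library.

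**Figure D1:**
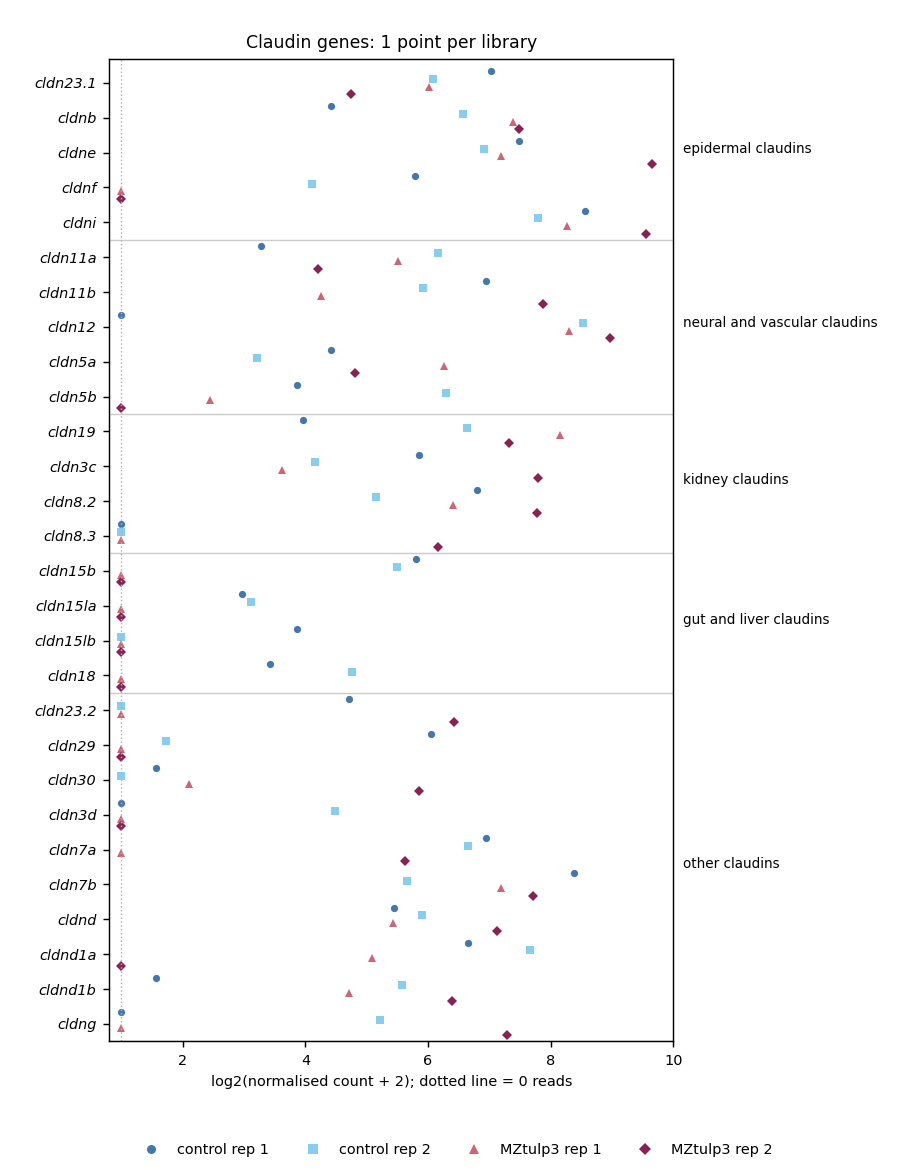
Level of each of the 28 claudin genes in each of the 4 libraries, as log2(normalised count + 2) on the horizontal axis, grouped by the organ in which the gene is best known. Each point is 1 library, and points on the dotted line have 0 reads. All 4 gut and liver claudins lie on that line in both MZtulp3 libraries. Of all genes with a read, 13.5% had reads in control and none in MZtulp3 libraries. The gut and liver list was chosen with earlier results of these data known. Of the 21 tested claudins, 11 are highest in MZtulp3 replicate 2 (background 27.3% of all genes tested).

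Among the 5 epidermal claudins, cldnb was higher in both MZtulp3 libraries than in either control library, cldn23.1 and cldnf were lower in both, and the groups overlapped for cldne and cldni. The background was 20.0% of all genes tested above control in both MZtulp3 libraries and 23.3% below. cldnb, a skin claudin whose promoter is widely used to label the lateral line primordium in zebrafish, had 19.3 and 93.1 normalised counts in control and 165 and 176 in MZtulp3 libraries. The MZtulp3 libraries lay close together and the control libraries did not. The log2 fold change was 1.94 (SE 1.12, 95% interval -0.72 to 4.60, limma adjusted p = 0.521), with a value of 3.02 when control replicate 2 was left out and 0.86 when control replicate 1 was.

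cldne, a claudin of the enveloping layer and later of the outer skin in zebrafish, had 176 and 119 normalised counts in control and 143 and 799 in MZtulp3 libraries. cldni, which is also expressed in embryonic skin, had 374 and 221 in control and 307 and 749 in MZtulp3 libraries. For both genes MZtulp3 replicate 1 lay between the control libraries and MZtulp3 replicate 2 lay above all others. The log2 fold change of cldne was 1.22 (SE 0.87, limma adjusted p = 0.600) and -0.016 without MZtulp3 replicate 2. That of cldni was 0.74 (SE 0.58, limma adjusted p = 0.635), 0.096 without MZtulp3 replicate 2 and 1.38 without MZtulp3 replicate 1.

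cldnf, a neighbour of cldne on chromosome 15, had 52.9 and 15.2 normalised counts in control and no read in either MZtulp3 library. With 3 reads per library as the floor, it was at least 9.77-fold lower in MZtulp3 libraries, and at least 4.35-fold lower without control replicate 1. The fitted log2 fold change, which depends on the added count of 2, was -3.94 (SE 1.56, limma unadjusted p = 0.039, adjusted p = 0.381). As cldnf passed the filter through the control libraries alone, its direction was fixed by the filter. cldn23.1, one of the zebrafish copies of claudin 23, had 128 and 66.0 normalised counts in control and 63.0 and 24.8 in MZtulp3 libraries, with a log2 fold change of -1.17 (SE 1.24, limma adjusted p = 0.742) that ranged from -1.81 to -0.53 with 1 library left out. Its highest MZtulp3 value lay just under its lowest control value.

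The summed epidermis markers lay above control in both MZtulp3 libraries, and the summed epidermal claudins overlapped between the groups. All 12 markers measured, among them the skin keratins krt4, krt5 and cyt1, had a log2 fold change above 0, with both MZtulp3 libraries above both control libraries for 10 of them (background 20.0% of all genes tested). The groups overlapped for icn and tp63, with ratios of 1.38 and 1.49. The summed level of the 12 markers ranged from 197031 to 267967 normalised counts in control and from 490471 to 603771 in MZtulp3 libraries, a ratio of 2.35. Most of this sum came from the keratins krt4, cyt1l and cyt1. Their means were 98426, 57808 and 45320 in control and 246080, 138206 and 102546 in MZtulp3 libraries. With limma 0 of the 12 had an adjusted p under 0.05 and 8 an unadjusted one (background 12.8%), and DESeq2 gave 5 with an adjusted p under 0.05 (background 2.6%). The epidermal claudins summed to 750 and 514 normalised counts in control and 678 and 1749 in MZtulp3 libraries, so these groups overlapped. Set against the marker sum, which is mostly these keratins, the claudin sum was 0.280% and 0.261% in control and 0.138% and 0.290% in MZtulp3 libraries. The part of the markers in the claudin values was not tested. The median log2 fold change of the 5 claudins was 0.74, and it ranged from -0.016 without MZtulp3 replicate 2 to 1.38 without MZtulp3 replicate 1.

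**Figure D2:**
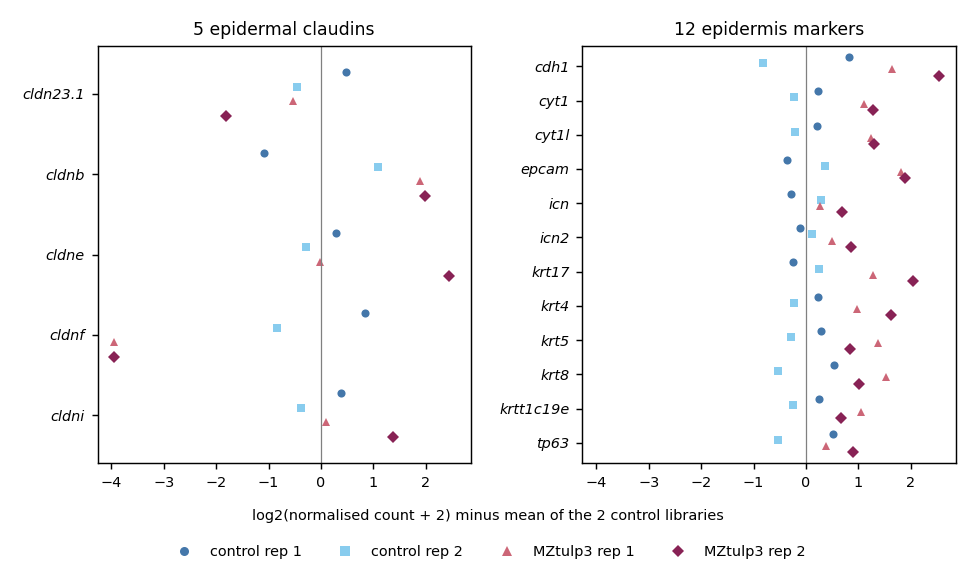
Difference of each library from the mean of the 2 control libraries, in log2(normalised count + 2), for the 5 epidermal claudins (left) and the 12 epidermis markers (right), with 1 point per library. MZtulp3 points lie above both control points for 10 of the 12 markers and for 1 of the 5 claudins, cldnb (background 20.0% of all genes tested). Both MZtulp3 points of cldnf are at 0 reads.

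Of the neural and vascular claudins, cldn5a was higher and cldn5b lower in both MZtulp3 libraries, and cldn11a, cldn11b and cldn12 overlapped between the groups. Over all genes tested, 20.0% lay above control in both MZtulp3 libraries and 23.3% below, so these counts are near the background. cldn5a and cldn5b are the zebrafish copies of claudin 5, the main claudin of the mammalian blood-brain barrier. In zebrafish cldn5a also seals the neuroepithelium around the brain ventricles, and cldn5b is expressed in blood vessels. cldn5a had 19.3 and 7.26 normalised counts in control and 74.4 and 26.0 in MZtulp3 libraries (log2 fold change 1.72, SE 1.66, limma adjusted p = 0.711, and 1.00 to 2.45 with 1 library left out). cldn5b had 12.5 and 76.6 in control, and 3.435 (3 reads) and 0 in MZtulp3 libraries. Over the pooled reads of each group (129 in control and 3 in MZtulp3), cldn5b was 29.0-fold lower in MZtulp3 libraries, with an exact 95% interval of 9.70 to 142 that covers counting error only. Between libraries its log2 fold change was -3.36 (SE 1.74, 95% interval -7.46 to 0.75, limma adjusted p = 0.474). Most of its control reads came from control replicate 2, and the log2 fold change was -2.14 without that library and -4.58 without control replicate 1. cldn5b passed the filter through the control libraries alone, so its place below control was fixed by the filter. The 2 copies of claudin 5 had values on opposite sides of control, neither past the test. Because the side of cldn5b was fixed, this contrast is a description only, and the difference between the copies was not tested.

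Vessel and neuron markers stand beside these values. cdh5, the cadherin of endothelial junctions, had 165 and 179.6 normalised counts in control and 57.3 and 21.2 in MZtulp3 libraries, on the same side of control as cldn5b. kdrl, a receptor for vascular growth factor, had 98.2 and 80.5 in control and 133 and 123 in MZtulp3 libraries, on the other side. Of 9 endothelium markers 7 had a read, with fli1a and pecam1 at 0 in every library. The summed level of the 7 was 722 to 888 in control and 683 to 943 in MZtulp3 libraries. Of the 5 that were tested, tek was also below control in both MZtulp3 libraries and she also above. The groups overlapped for egfl7. Over all genes tested, 20.0% were above control in both MZtulp3 libraries and 23.3% below. The 4 neuron markers with a read summed to 8283 to 13413 in control and 5680 to 7586 in MZtulp3 libraries, below control, whereas cldn5a was above it. Among these markers, elavl4 and snap25a were below control in both MZtulp3 libraries, and the groups overlapped for elavl3 and stmn1b. elavl3 had 1120 and 1526 in control and 1301 and 1842 in MZtulp3 libraries. The part of these cell types in the claudin values was not tested.

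cldn11a and cldn11b are copies of claudin 11, which in mammals forms the tight junctions within myelin. cldn11a had 7.70 and 69.3 normalised counts in control and 43.5 and 16.5 in MZtulp3 libraries. cldn11b had 121 and 58.1 in control and 17.2 and 233 in MZtulp3 libraries. In both genes the replicates of a group lay further apart than the group means. cldnk, the myelin claudin of zebrafish, had no read in any library. For cldn12, a claudin found in mouse brain endothelium among other tissues, control replicate 1 had no read and control replicate 2 had 366 normalised counts, beside 311 and 496 in MZtulp3 libraries. Its log2 fold change of 3.86 (SE 2.20, limma adjusted p = 0.511), the highest of the tested claudins, was 0.10 without control replicate 1. A library at 0 was rare at such a level: of 2410 genes with a mean between 200 and 400 normalised counts, 21 (0.871%) had one. The 5 genes had a median log2 fold change of 0.14, which was -0.059 when libraries were scaled by their non-mitochondrial reads, so no direction is given for them as a group.

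The kidney claudins with reads were cldn19, cldn3c, cldn8.2 and cldn8.3, and their summed level was higher in both MZtulp3 libraries (376 and 665 normalised counts) than in either control library (178 and 147), a ratio of 3.20. cldn19, which in mammals takes part in cation transport across the thick ascending limb of the nephron and is also found in Schwann cells, had 13.5 and 97.1 normalised counts in control and 283 and 158 in MZtulp3 libraries. Both MZtulp3 libraries were above both control libraries, with a log2 fold change of 2.45 (SE 1.20, 95% interval -0.40 to 5.29, limma adjusted p = 0.452). Leaving out control replicate 1 gave 1.11, and leaving out control replicate 2 gave 3.79. cldn8.2, a copy of claudin 8 of the distal nephron and collecting duct in mammals, had 109 and 33.7 in control and 82.4 and 217 in MZtulp3 libraries, so the groups overlapped. cldn3c had 55.8 and 15.8 in control and 10.3 and 219.5 in MZtulp3 libraries, with the lowest and the highest value both in the MZtulp3 group. cldn8.3 had reads in MZtulp3 replicate 2 alone, at 69.6 normalised counts. It overlaps cldn8.2 in the GRCz12tu annotation, so reads of these genes may be shared.

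Without cldn19 the kidney sum was 165 and 49.5 normalised counts in control and 92.7 and 506 in MZtulp3 libraries, and the groups overlapped. cldn2 and cldn10a to cldn10e, whose mammalian counterparts form ion pores in the nephron, had no read in any library. The pronephros markers with a read, 9 of 10 (slc12a1 was at 0 in every library), summed to 877 to 1441 in control and 670 to 1154 in MZtulp3 libraries, which overlapped. Most of this sum came from pax2a, with 742 and 1184 in control and 911 and 402 in MZtulp3 libraries. Of the 6 pronephros markers tested, the cadherin cdh17 of kidney tubules and gut alone had both MZtulp3 libraries above both control libraries (background 20.0%). It had 32.7 and 29.1 in control and 85.9 and 148 in MZtulp3 libraries. The groups overlapped for the other 5. Of the markers not tested, clcnk and cubn had 16 and 29 reads in control replicate 2 alone. hnf1ba had 27 reads in control replicate 1 alone. Of all genes with a read, 13.5% had reads in control and none in MZtulp3 libraries. For the Schwann cell side of cldn19, the 6 myelinating glia markers summed to 602 to 968 in control and 866 to 1162 in MZtulp3 libraries, which overlapped. Within them, the myelin gene mpz had 39.5 and 120.2 in control and 0 in both MZtulp3 libraries. plp1b, another of these markers, had 69.3 and 19.8 in control and likewise 0 in both MZtulp3 libraries. Both genes passed the filter through the control libraries alone, so their place below control was fixed by the filter. sox10, a transcription factor of glia and neural crest, was on the same side as cldn19. It had 211 and 127 in control and 439 and 299.8 in MZtulp3 libraries. The groups overlapped for olig2 and plp1a, and mbpa was not tested. The part of these cells in the kidney claudin values was not tested.

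The gut and liver claudins were the one group without a read in MZtulp3 libraries. cldn15b, cldn15la, cldn15lb and cldn18 together had 84 and 113 reads in the control libraries (80.9 and 74.6 normalised counts) and 0 in both MZtulp3 libraries. With 3 reads per library as the floor for the sum, this was at least 22.3-fold lower, and at least 21.4-fold lower without control replicate 1. Of all genes with a read, 13.5% had reads in control and none in MZtulp3 libraries, and 3.91% had them in both control libraries. cldn15la, cldn15lb and cldn18 had only 16, 13 and 47 reads over the 4 libraries. The list was chosen with earlier results of these data known, so its pattern is a description only. Claudin 15 forms sodium pores in the mammalian intestine, and claudin 18 is a claudin of stomach and lung epithelium in mammals. In zebrafish cldn15la marks the intestinal epithelium and cldn15lb is expressed in the liver.

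cldn15b carried most of these reads, with 53.9 and 42.9 normalised counts in control and no read in either MZtulp3 library. It was at least 13.9-fold lower in MZtulp3 libraries (at least 12.3-fold without control replicate 1), and its fitted log2 fold change was -4.65 (SE 1.55, 95% interval -8.32 to -0.97, limma unadjusted p = 0.020, adjusted p = 0.379). The adjusted p ranged from 0.142 to 0.614 over the alternatives. cldn18 had 8.66 and 25.1 normalised counts in control, cldn15la had 5.78 and 6.60, and cldn15lb had 12.5 in control replicate 1 alone. These 3 genes did not reach the filter for the test. cldn15b, cldnf and cldn5b passed the filter through the control libraries alone, and a gene that passes in this way has to differ between the groups.

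The gut markers were divided. fabp2, the fatty acid binding protein of intestinal cells, had 132 and 249.6 normalised counts in control and 553 and 489 in MZtulp3 libraries, on the other side of control from cldn15b. The 4 gut markers with a read (cdx1b was at 0 in every library) summed to 293 to 455 in control and 639 to 722 in MZtulp3 libraries. vil1, the villin of the brush border, had 30.8 in control replicate 1 and 0 elsewhere, like cldn15lb. foxa3, a transcription factor of the endoderm, had 259.9 and 14.5 in control and 0 and 86.2 in MZtulp3 libraries, which overlapped. Of the 4, fabp2 and cdh17, which is also among the pronephros markers, were thus above control in both MZtulp3 libraries (background 20.0%). vil1, with 32 reads in control replicate 1 alone, did not enter the test. The part of the gut markers in the values of the gut and liver claudins was not tested.

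**Figure D3:**
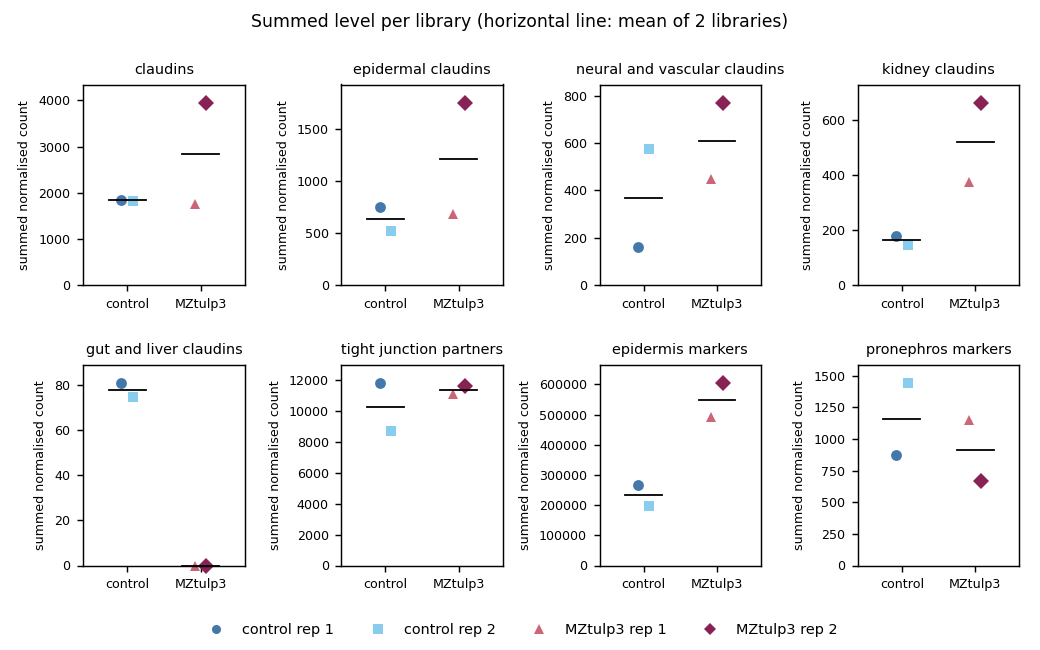
Summed normalised count per library for all claudins, the 4 organ groups, the tight junction partners, and the epidermis and pronephros markers, with 1 point per library, a horizontal line at the mean of the 2 libraries of a group and axes that start at 0. The kidney claudin sum is higher and the gut and liver claudin sum lower in both MZtulp3 libraries than in either control library. Without cldn19 the kidney sums of the groups overlap. The total over all claudins is higher in MZtulp3 replicate 2 (3952) than in the other libraries (1747 to 1851).

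The other 10 claudin genes matched none of the organ lists by symbol or synonym, which does not show that they lack such an organ. cldn23.2 is among them, although cldn23.1 is on the epidermal list. cldn7b, a copy of claudin 7 of many epithelia, had 330.2 and 48.2 normalised counts in control and 144 and 208 in MZtulp3 libraries, with both MZtulp3 values inside the control range. Its partner copy cldn7a had 121 and 98.4 in control and 0 and 47.2 in MZtulp3 libraries, below control in both, with a log2 fold change of -3.49 (SE 1.95, limma adjusted p = 0.504) that was -1.18 without MZtulp3 replicate 1 and -5.80 without MZtulp3 replicate 2. cldnd1a, which codes for a claudin domain protein and not a classical claudin, had 98.2 and 199 in control and 32.1 and 0 in MZtulp3 libraries, with a log2 fold change of -4.11 (SE 1.87, limma adjusted p = 0.419) that was -2.06 without MZtulp3 replicate 2 and -6.15 without MZtulp3 replicate 1. cldn7a and cldnd1a, like cldng, cldn29 and cldn30 in what follows, fell outside the rule for named genes and are named with their values known. The remaining members were read unevenly: cldng, for example, had 35.0 in control replicate 2, 155 in MZtulp3 replicate 2 and 0 in the other libraries.

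Neighbouring claudins are described here by their values, and whether they share a pattern was not tested. On chromosome 21 of the GRCz12tu annotation, cldn3c, cldn3d, cldnb, cldn29, cldnd and cldn30 lie in 1 cluster, together with cldn28, which was not analysed here, and with non-coding genes between some of them. The 6 genes summed to 182 and 188 normalised counts in control and 219 and 588 in MZtulp3 libraries. Of these, cldn3c, cldnb, cldnd and cldn30 were highest in MZtulp3 replicate 2, and cldn3d and cldn29 had no MZtulp3 read. cldnb was above control in both MZtulp3 libraries. Its neighbour cldn29 had 64.5 and 1.32 in control (67 and 2 reads) and 0 in both MZtulp3 libraries. cldn30 had 55.5 in MZtulp3 replicate 2 and at most 2.29 elsewhere. On chromosome 15, cldne was highest in MZtulp3 replicate 2 and the adjacent cldnf had no MZtulp3 read, and the genes on either side of this pair, cldnj and cldna, had no read in any library.

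Over all claudins, MZtulp3 replicate 2 stood apart. It held the highest value for 11 of the 21 tested genes (52.4%, background 27.3%), and the summed claudin level was 1851 and 1818 in control and 1747 and 3952 in MZtulp3 libraries. The group means were 1834 ± 23.8 and 2849 ± 1559 (SD, n = 2 each). An exact two-sided permutation test gave p = 1.0, but with 2 libraries against 2 its smallest possible p is 0.33, so it could not reach the threshold whatever the values. The log2 ratio of the sums was 0.64, and -0.070 without MZtulp3 replicate 2. This library also had the highest share of mitochondrial reads and the fewest genes with a read (13277), and the part of these in the claudin values was not tested. The median log2 fold change of the tested claudins was 0.70, with 14 above and 7 below 0 (background 47.2% above), beside a median of -0.09 over all genes, and it was -0.23 without MZtulp3 replicate 2.

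Both MZtulp3 libraries lay above both control libraries for 3 claudins (cldn19, cldn5a and cldnb, background 20.0%) and below for 6 (cldn15b, cldn23.1, cldn5b, cldn7a, cldnd1a and cldnf, background 23.3%), and the groups overlapped for 12. Of the 6, cldn15b, cldn5b and cldnf passed the filter through the control libraries alone, so their place below control was fixed by the filter. The same genes were found under both other scalings of the libraries. Scaling cannot change the order for cldn15b and cldnf, which had no MZtulp3 read. Reads in control but in neither MZtulp3 library were found for 7 of the 28 genes (cldn15b, cldn15la, cldn15lb, cldn18, cldn29, cldn3d and cldnf), against 13.5% of all genes with a read, and 5 of them had reads in both control libraries, against 3.91%. The reverse held for cldn8.3 alone, against 8.77%. The plot of log2 fold changes sets these genes side by side.

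**Figure D4:**
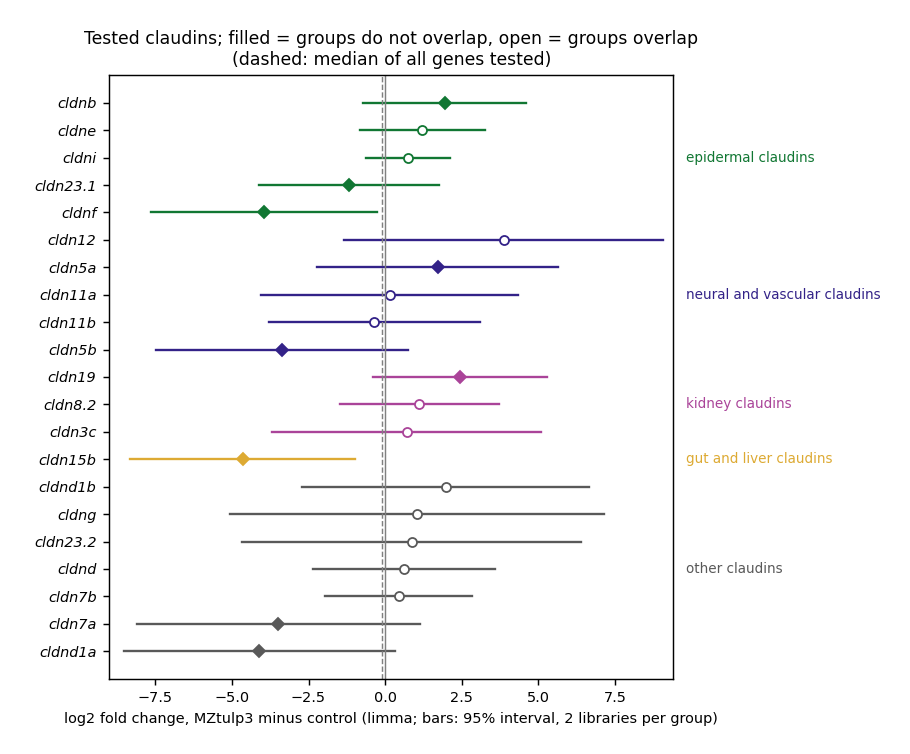
Log2 fold change (MZtulp3 minus control, in log2(normalised count + 2)) of the 21 tested claudins with its 95% interval from limma, grouped by organ. The intervals of 19 of the 21 genes include 0, and the 2 that do not, cldn15b and cldnf, have a limma adjusted p of 0.379 and 0.381. These 2 genes passed the filter through the control libraries alone, so their direction was fixed by the filter.

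Other proteins of the junction were taken from a list of 53 symbols, of which 39 genes had a read and 30 entered the test. Their median log2 fold change was 0.44, with 20 above and 10 below 0 (background 47.2% above), and it was -0.14 without control replicate 2. None had an adjusted p under 0.05 with limma, edgeR or DESeq2. At an unadjusted p under 0.05 limma gave 2 (background 12.8%), edgeR 2 (background 9.72%) and DESeq2 7 of the 39 with a read (background 11.4%). Both of limma's belong to the Par polarity complex. pard3ba, a Par3 scaffold, had 2.89 and 5.94 normalised counts in control and 114.5 and 100.3 in MZtulp3 libraries (log2 fold change 4.13, SE 1.59, limma adjusted p = 0.379). pard6gb, a Par6 adaptor that holds atypical protein kinase C, had 112 and 107 in control and 285 and 629 in MZtulp3 libraries (log2 fold change 1.94, SE 0.63, limma adjusted p = 0.379). pard3ba passed the filter through the MZtulp3 libraries alone, so its difference was fixed by the filter, whereas pard6gb passed through both groups and both its MZtulp3 values were above its control values.

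The kinase itself, prkci, had 461 and 379 in control and 647 and 732 in MZtulp3 libraries. Of the other Par genes with a read, pard6a was above control in both MZtulp3 libraries, and the groups overlapped for pard3ab and pard3bb. pard3ab had 277 and 100 in control and 159 and 24.8 in MZtulp3 libraries. pard3aa had reads in MZtulp3 replicate 1 alone, and prkcz in MZtulp3 replicate 2 alone. Occludin, the first membrane protein described in tight junctions, is present as copies with values on opposite sides of control: oclna had 80.9 and 81.9 in control and 126 and 113 in MZtulp3 libraries, and oclnb had 199 and 97.7 in control and 63.0 and 38.9 in MZtulp3 libraries. For the ZO-1 scaffold, tjp1a had 1478 and 1184 in control and 2011 and 1397 in MZtulp3 libraries, and tjp1b had 1202 and 739 in control and 615 and 786 in MZtulp3 libraries, so that the groups overlapped for both. Of the other ZO genes, tjp2a and tjp3 were above control in both MZtulp3 libraries, and the groups overlapped for tjp2b. Of the 30 partners tested, 10 were above control in both MZtulp3 libraries (background 20.0%) and 3 below (background 23.3%). The 10 include pard3ba, whose side was fixed by the filter. prkci, the other Par genes, the occludins and the ZO genes are likewise named with their values known. The summed level of the 39 partners was 11764 and 8654 in control and 11050 and 11619 in MZtulp3 libraries, inside the control range.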

How the data were processed

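Poly(A) RNA-seq libraries of whole embryos were made for 2 control and 2 MZtulp3 samples. The authors trimmed reads with Trim Galore, aligned them to GRCz10 with STAR, counted them with RSEM and normalised them with DESeq2, per the study's methods. The deposited signal values carry the name of counts but are reads divided by a size factor: 100% of them were whole multiples of 1 constant per library (within 0.001 of a read), and reads were recovered on this basis for edgeR and DESeq2. The 4 deposited columns of regularized log values and the authors' fold changes and p-values were not used. Of 9609 rows without a symbol, 4610 took one from a table of gene names, which matched 25925 identifiers.

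Genes with at least 10 normalised counts in at least 2 libraries were tested with limma (3.58.1, R 4.3.3, variance trend) on log2(normalised count + 2), with Benjamini-Hochberg adjustment over 14674 genes and a threshold of 0.05. Because the values were normalised, this replaced a count test as the main result. edgeR (4.0.16) and DESeq2 (1.42.0) were run on recovered reads, with other pseudocounts (0.5 and 10), filters, scalings, a replicate block, each library left out and a threshold of 0.1. The fit was also run on simulated data, and its outcome is not used as support here. Named genes were the claudins of the 4 organ lists with a read, any other claudin with an unadjusted limma p under 0.05, an adjusted DESeq2 p under 0.05 or among the 5 highest means, and partners with an unadjusted limma p under 0.05. The members, the lists and the markers were chosen with earlier results of these data known. With 2 libraries per group, p-values measure the spread between these libraries only, which may be technical. The 2 claudin rows without a symbol, cldn1 and cldn10l2 (named by the gene name table), were added as an alternative after seeing the data. No sequences were used here.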

Additional observations from a re-analysis of the deposited data

How the results depend on the processing

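No alternative gave a claudin an adjusted p under the threshold, and the count of claudins past it stayed 0 with DESeq2, edgeR and each other setting. Over all genes the count was 0 with limma (1873 at an unadjusted p under 0.05) and 0 with edgeR (1427 unadjusted), but 355 with DESeq2 and 112 when every library had to hold 10 normalised counts. The replicate block gave 329 genes, yet the libraries share only a number: across 14674 genes the difference between replicates 1 and 2 in control and in MZtulp3 libraries had a correlation of -0.0029. Scaling by non-mitochondrial reads moved the median log2 fold change of all genes from -0.09 to -0.29. With 1 library left out, the medians ranged from -0.23 to 1.45 for claudins, -0.016 to 1.38 for epidermal, 0.10 to 1.12 for neural and vascular and 0.30 to 2.03 for kidney claudins, -0.14 to 0.80 for partners, and the log2 ratio of summed claudin levels from -0.070 to 1.11. Direction changed for cldn11a (-0.36 with DESeq2, -0.37 with edgeR, -0.059 with non-mitochondrial scaling), cldn11b (0.48 with DESeq2, 0.46 with edgeR) and cldn7b (-0.10 with DESeq2, -0.11 with edgeR). Leaving out 1 library also changed the direction of cldn11a (-1.30 to 1.58), cldn11b (-2.17 to 1.45), cldn23.2 (-1.85 to 3.57), cldn3c (-1.38 to 2.79), cldn7b (-0.92 to 1.80), cldnd (-0.23 to 1.45), cldnd1b (-0.029 to 3.98), cldne (-0.016 to 2.45) and cldng (-2.10 to 4.19). The cause was not tested. Of 23 genes followed, 14 kept their direction in every alternative, 12 of them claudins. The 14 include cldn15b, cldn5b, cldnf and pard3ba, which passed the filter through 1 group alone, so that their direction was fixed by the filter. Of the alternatives chosen after seeing the data, adding cldn1 and cldn10l2 gave a claudin median of 0.72, and leaving out cldnd1a and cldnd1b gave 0.70. Without 1 library, the log2 fold change of 19 of the 21 tested claudins moved by over 1.5 times or changed direction. Depth also limits them, since 9 of the 28 had fewer than 100 reads in all.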
